A study of Homo sapiens with 12 samples.

Results

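The RNA sensor genes described here were 8 of the 58288 genes listed for FaDu cells, taken by symbol because their products recognise double-stranded or viral RNA or pass the signal on: DDX58, IFIH1, DHX58, DDX60, DDX60L, MAVS, EIF2AK2 and TLR3. All 8 were found, and all 8 passed the filter on low values. FaDu is an established human head and neck squamous cell carcinoma (HNSCC) line, and the study asked how loss of STING, the adaptor of cytosolic DNA sensing encoded by the gene listed as TMEM173, changes gene expression before and after radiation. Both lines expressed Cas9 and were selected with puromycin. The STING WT line carried non-targeting gRNA 2, and the STING KO line (STING-/-) carried STING gRNA 2, so each genotype is represented by 1 line. Cells were grown in DMEM with serum and were either unirradiated or given 4 daily fractions of 2 Gy, which makes 4 groups of 3 RNA-Seq libraries. The labels do not say whether the 3 libraries of a group came from separate cultures, so the p-values below measure the spread between these libraries, which may be technical.

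RIG-I (DDX58) and MDA5 (IFIH1) are cytosolic helicases that bind viral or other double-stranded RNA and then engage MAVS, an adaptor on the mitochondrial surface, which leads to activation of TBK1 and IRF3 and to transcription of interferon genes. LGP2 (DHX58) has the same helicase fold without the signalling domains, DDX60 and DDX60L are related helicases with reported antiviral roles, PKR (EIF2AK2) is a kinase that stops translation when it binds double-stranded RNA, and TLR3 detects such RNA in endosomes. Several of these sensors are themselves interferon-stimulated genes, which are switched on through DNA elements called interferon-stimulated response elements (ISRE). STING serves DNA sensing and shares TBK1 and IRF3 with the RNA sensing route.

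Values are transcripts per 1000000 (TPM), which are scaled to gene length and sum to 1000000 in each library, so that levels of different genes can be compared but read depth is unknown. Between 14860 and 15292 genes reached 1 TPM in a library, mitochondrial genes held 8.90% to 11.9% of the TPM, and the lowest of 10 housekeeping genes in any library stood at 19.9 TPM. TMEM173 lay between 21.1 and 26.1 TPM in the 6 WT libraries and between 5.18 and 7.41 TPM in the 6 KO libraries, a KO mean of 26.3% of WT without radiation and 30.1% after it. These are whole-gene values and do not show the edited site. All 8 squamous epithelial markers were expressed, led by KRT5 at 1869 to 4839 TPM. Of the markers of other cells, 6 of 7 for fibroblasts, 5 of 8 for leukocytes and 2 of 4 for endothelium stayed under 1 TPM in every library, with the leukocyte marker PTPRC at most 0.0894 TPM. Markers above 1 TPM were CD68 (14.7 to 31.1 TPM) and CD14 (2.62 to 4.35 TPM) among those for leukocytes, CDH5 (8.51 to 19.8 TPM) and VWF (2.60 to 4.49 TPM) for endothelium and COL1A1 (6.34 to 9.23 TPM) for fibroblasts, with ITGAM reaching 1.41 TPM. The unirradiated WT replicate 3 had the lowest TPM of its group for all 8 sensor genes, at 70.9% (TLR3) to 96.5% (MAVS) of the mean of the other 2 libraries. Its effect on the results is given beside them.

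In unirradiated WT cells the most abundant sensor transcript was DDX60, with a mean of 81.0 TPM ± 13.1 (SD, n = 3), followed by EIF2AK2 at 56.8 TPM ± 2.35 and DDX58 at 39.6 TPM ± 6.17. MAVS (26.3 TPM), DDX60L (26.1 TPM) and IFIH1 (23.5 TPM) came next, with neighbours in this order overlapping, although every MAVS library was above every IFIH1 library. DHX58 followed at 12.3 TPM ± 2.09, and TLR3 was lowest at 5.76 TPM ± 1.38. The order was different in unirradiated KO cells. EIF2AK2 led at 43.7 TPM ± 1.86, ahead of MAVS at 27.5 TPM ± 0.729, while IFIH1 (13.8 TPM) and DDX60L (13.7 TPM) overlapped each other. The lowest 4 were TLR3, DHX58, DDX60 and DDX58, whose means lay between 4.25 and 5.32 TPM and whose neighbours in this order overlapped. Thus DDX60 had rank 1 of 8 in WT and rank 7 of 8 in KO cells. Summed over the 8 genes, the level was 237 to 293 TPM in the unirradiated WT libraries, 319 to 345 TPM in the irradiated WT libraries, 114 to 123 TPM in the unirradiated KO libraries and 102 to 114 TPM in the irradiated KO libraries.

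**Figure D1:**
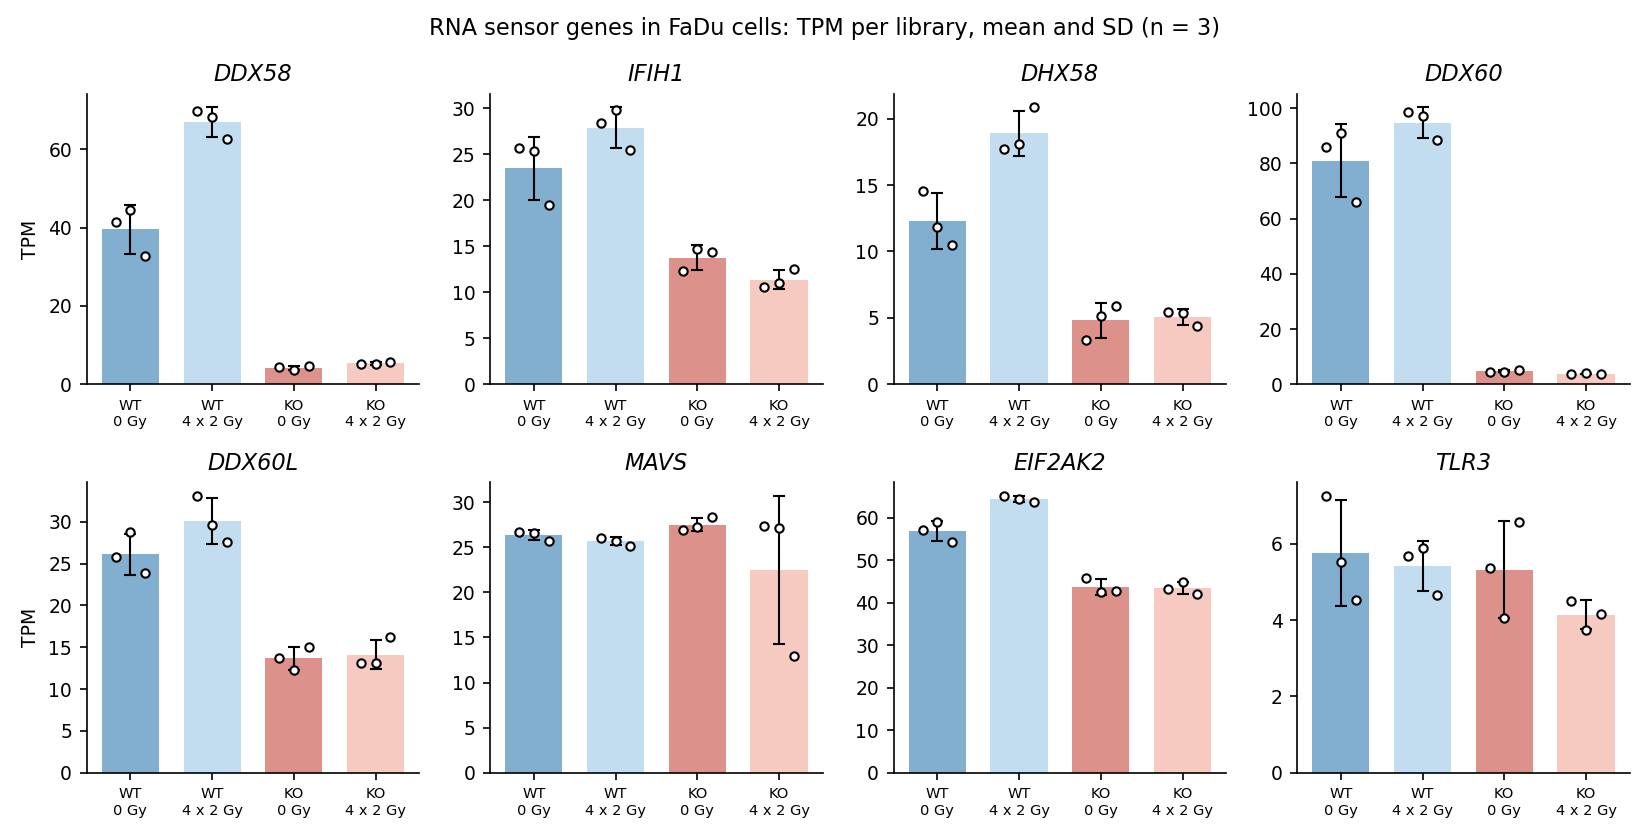
TPM (vertical axis, from 0) of each of the 8 RNA sensor genes in the 4 groups, with bars at the group mean, error bars of 1 SD and points for the 3 libraries. DDX58 and DDX60 are near the bottom of the axis in all KO libraries, while MAVS stands between 25.2 and 28.3 TPM in 11 of 12 libraries and at 12.96 TPM in the irradiated KO replicate 3.

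The promoters were searched because interferon-stimulated genes are commonly controlled close to their start. RefSeq promoter windows on GRCh38.p14, from 250 bases before the start to 50 bases after it, were matched for 7 of the 8 genes (DDX58 under its newer symbol RIGI), and no window was matched for DHX58. Both strands were searched for the core of an ISRE, written as GAAA, any 2 bases and GAAA again. It occurred in 5 of the 7 windows (IFIH1, DDX60, DDX60L, EIF2AK2 and TLR3), against 3.57% of the 35116 promoters in the table. The DDX58 and MAVS windows did not hold it. The DDX58 window held the same repeat with a spacer of 1 base, a form which 3.12% of promoters hold and which was added after the DDX58 letters were seen. This form also occurred in DDX60 and DDX60L, where it overlapped the nearer ISRE core. The third motif, the core of a gamma-activated site, written as TTC, any 3 bases and GAA, was in 7.66% of promoters, and among the 7 windows in those of DDX60 and TLR3. A match describes letters only, and binding of a factor was not measured. The stretches that hold the cores are printed here 5′ to 3′ on the gene's strand, with the cores in capitals, for comparison with the expression changes that follow. The DDX60 stretch lies at chr4:168318781-168318855 and that of DDX60L at chr4:168480518-168480587, both on the minus strand. The others are 30 bases each, at chr9:32526380-32526409 (minus, DDX58, with the shorter spacer), chr2:162318686-162318715 (minus, IFIH1, the core nearest the start), chr2:37156967-37156996 (minus, EIF2AK2) and chr4:186069142-186069171 (plus, TLR3, where the core reads on the opposite strand). In the annotation used for coordinates, the RefSeq starts of all 7 genes fall inside the gene, but only the DDX60L window does so as a whole. Annotated exons covered 27 of 75 bases of the DDX60 stretch and 0 of 70 of the DDX60L stretch. Of the 30 bases they covered 0 (DDX58), 18 (IFIH1), 30 (EIF2AK2) and 20 (TLR3).
DDX60: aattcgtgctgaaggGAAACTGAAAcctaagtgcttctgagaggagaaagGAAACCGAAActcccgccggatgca
DDX60L: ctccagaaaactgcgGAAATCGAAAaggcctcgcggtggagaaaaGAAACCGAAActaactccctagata
DDX58: ggtgcggaggGAAACGAAActagcccgagg
IFIH1: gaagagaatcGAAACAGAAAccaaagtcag
EIF2AK2: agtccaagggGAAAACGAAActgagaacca
TLR3: caagctttacTTTCACTTTCgagagtgccg

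DDX60 and its neighbour DDX60L, 2 related genes on the same strand of chromosome 4, each held 2 ISRE cores at similar distances from the start. With the first transcribed base at 0, the cores began at -88 and -53 in DDX60 and at -80 and -50 in DDX60L. The nearer core had the same letters in both genes, and 23 of the 30 bases around it were identical. Around the farther core, 12 of 30 bases were identical. The IFIH1 window held 2 further cores on the opposite strand, which overlapped each other. The cores of EIF2AK2 and TLR3 spanned the start itself.

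**Figure D2:**
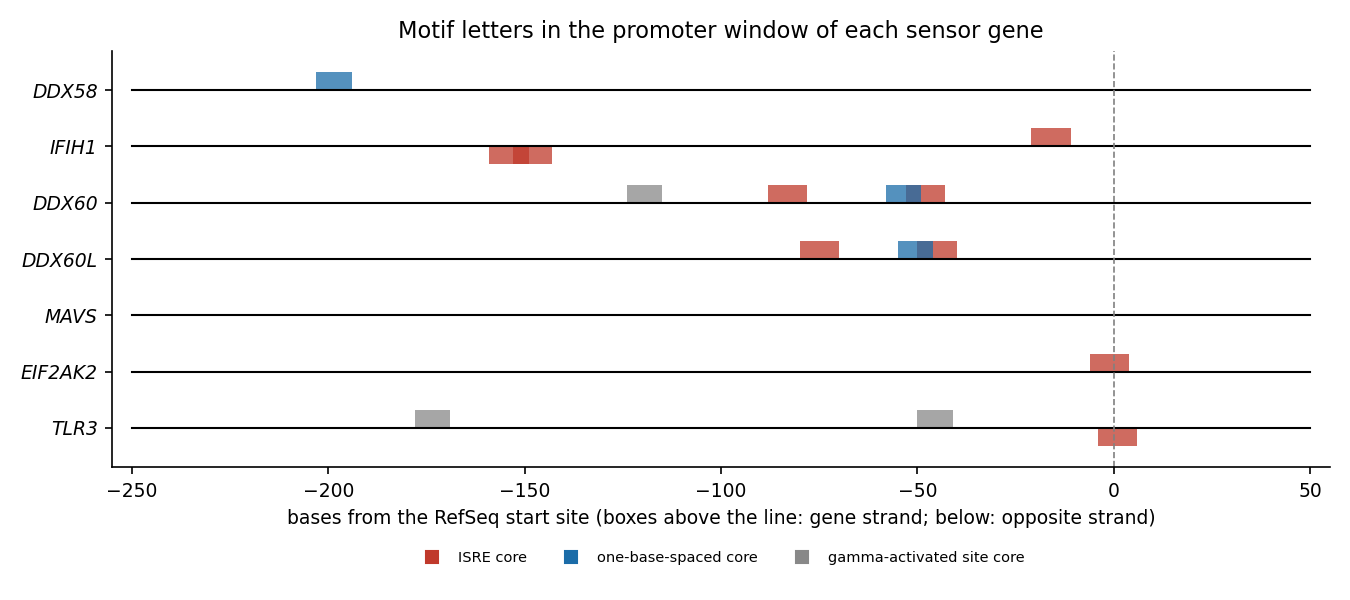
Positions of the 3 motifs in the promoter windows of the 7 sensor genes matched in RefSeq, in bases from the start site (horizontal axis, from 250 before to 50 after), with boxes above the line for the gene's strand and below it for the opposite strand. DDX60 and DDX60L each show 2 ISRE cores at similar distances from the start, and the MAVS line holds no box.

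Loss of STING in unirradiated cells was accompanied by lower transcript levels of 6 of the 8 sensor genes (DDX58, IFIH1, DHX58, DDX60, DDX60L and EIF2AK2) at an adjusted p under 0.05 (limma, Benjamini-Hochberg over 15973 genes). Of all genes tested, 1.26% were called lower in this comparison. The sizes ranged widely, from 5.74% of the WT mean left for DDX60 to 76.9% left for EIF2AK2. The median log2 fold change of the 8 genes was -0.80, against -0.02 for all genes. The KO libraries of these 6 genes all lay under the lowest WT library, as did those of 12.1% of all genes. MAVS and TLR3 did not pass. In bulk RNA, fewer cells expressing a gene and less RNA per cell cannot be told apart. Log2 fold changes are given on the log2(TPM + 1) scale, which understates the change of low genes.

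DDX58 (RIG-I; chr9:32455705-32526324, minus strand) measured 41.6, 44.5 and 32.7 TPM in WT replicates 1 to 3 and 4.33, 3.69 and 4.74 TPM in KO. The groups were far apart, and the highest KO library held 11.98% of the WT mean. The log2 fold change was -2.94 ± 0.11 (SE; adjusted p = 2.3e-07), and KO cells kept 10.7% of the WT level. IFIH1 (MDA5; chr2:162267079-162318703, minus strand) measured 25.6, 25.3 and 19.5 TPM in WT and 12.3, 14.7 and 14.4 TPM in KO. Its groups did not overlap, but the change was smaller than that of DDX58, at -0.72 ± 0.12 (SE; adjusted p = 0.010). The TPM ratio of DDX58 to IFIH1, the sensors of the shared MAVS route, lay between 1.62 and 1.76 in WT and between 0.252 and 0.353 in KO libraries. RIG-I transcript therefore exceeded MDA5 transcript in every WT library and was below it in every KO library. The exact permutation test of this ratio gave p = 0.1, the smallest value that 3 against 3 libraries allow, and the pair was chosen with results known.

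DHX58 (LGP2, which modulates the other receptors; chr17:42101404-42112733, minus strand) measured 14.6, 11.8 and 10.5 TPM in WT and 3.35, 5.16 and 5.90 TPM in KO. All KO libraries were below all WT libraries, although the KO libraries differed among themselves by more, relative to their mean, than those of any other member in this group. The log2 fold change was -1.21 ± 0.17 (SE; adjusted p = 0.0048). Among the RIG-I-like receptors the KO level thus stood at 10.7% of WT for DDX58, 39.1% for DHX58 and 58.7% for IFIH1.

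DDX60 (chr4:168216293-168318807, minus strand) showed the lowest KO level relative to WT among the 8 genes. It measured 85.8, 91.1 and 66.2 TPM in WT and 4.40, 4.50 and 5.06 TPM in KO. The log2 fold change was -3.85 ± 0.11 (SE; adjusted p = 1.4e-08), and by p-value DDX60 had rank 4 of the 15973 genes tested. Its paralog DDX60L (chr4:168356735-168537786, minus strand) measured 25.8, 28.7 and 23.8 TPM in WT and 13.7, 12.3 and 15.0 TPM in KO. DDX60L therefore kept 52.3% of its WT level, at -0.89 ± 0.11 on the log2 scale (SE; adjusted p = 0.0020). The ratio of DDX60 to DDX60L was 2.78 to 3.33 in WT and 0.320 to 0.367 in KO libraries (exact permutation p = 0.1, the smallest possible). Each gene of the pair held 2 ISRE cores at similar distances from its RefSeq start, and the pair differed in response by this measure. The farther cores were less alike, with 12 of 30 bases identical around them. The DDX60L window lies inside the gene measured here, so its TPM may include transcripts that start elsewhere. A link between these promoters and the response was not tested. Reads shared by the paralogs could be split between them in counting, and DDX60L overlaps PALLD on the opposite strand (at most 71.5 TPM). The strand setting of the counting was not given in the sources used here, so the DDX60L values are uncertain to that extent.

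EIF2AK2 (PKR; chr2:37099210-37157065, minus strand) changed less than the RIG-I-like receptors. It measured 57.0, 59.0 and 54.3 TPM in WT and 45.8, 42.5 and 42.7 TPM in KO, with no overlap. The log2 fold change was -0.37 ± 0.050 (SE; adjusted p = 0.0035). EIF2AK2 overlaps GPATCH11 on the opposite strand (at most 21.0 TPM) at its end.

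MAVS, the adaptor (chr20:3846799-3876123, plus strand), measured 26.7, 26.6 and 25.7 TPM in WT and 26.9, 27.3 and 28.3 TPM in KO. The KO mean was 105% of the WT mean, and the KO libraries were all above the WT libraries, as were those of 8.51% of all genes. The log2 difference was 0.06, with a 95% interval of -0.42 to 0.54 (adjusted p = 0.94). The fit shares 1 spread over all 12 libraries, so this interval also holds that of the irradiated KO libraries. Their SD for MAVS was 8.24 TPM, against 0.542 TPM in unirradiated WT and 0.729 TPM in unirradiated KO. The interval and p-value are therefore wider than these 6 libraries alone would give. TLR3 (chr4:186069152-186088069, plus strand) measured 7.25, 5.51 and 4.52 TPM in WT and 5.35, 4.04 and 6.57 TPM in KO. The groups overlapped, and the log2 difference was -0.10, with a 95% interval of -0.48 to 0.29 (adjusted p = 0.86). TLR3 held an ISRE core in its window and did not pass the test, although its interval includes lower levels in KO. DDX58 passed with only the form of shorter spacer in its window, and bases outside the windows were not searched. Whether these motifs bear on the changes was not tested.

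The 6 calls were also made when each of the 12 libraries was left out in turn, the unirradiated WT replicate 3 included. With only the 6 libraries of this comparison in the fit, 3 calls remained (DDX58, DDX60 and DDX60L), and IFIH1 (adjusted p = 0.091), DHX58 (0.080) and EIF2AK2 (0.068) missed the threshold. Over all 15973 genes the calls in either direction fell from 276 to 103 in that fit.

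In irradiated cells the comparison of KO with WT gave the same 6 genes as lower, and 2.66% of all genes were called lower. The KO mean stood at 4.03% of WT for DDX60, 7.97% for DDX58, 26.8% for DHX58, 40.7% for IFIH1, 46.9% for DDX60L and 67.3% for EIF2AK2. Each of these shares was smaller than its unirradiated counterpart, and the test of that difference is given with the radiation effects below. The median log2 fold change of the 8 genes was -1.13, against -0.02 for all genes.

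DDX60 measured 98.7, 97.2 and 88.4 TPM in the irradiated WT libraries and 3.76, 3.91 and 3.79 TPM in the irradiated KO libraries, for a log2 difference of -4.31 ± 0.11 (SE; adjusted p = 4.4e-09). DDX58 measured 69.9, 68.3 and 62.6 TPM in WT and 5.05, 5.23 and 5.73 TPM in KO, at -3.42 ± 0.11 (SE; adjusted p = 4.5e-08). DHX58 measured 17.7, 18.1 and 20.8 TPM in WT and 5.44, 5.38 and 4.35 TPM in KO, at -1.72 ± 0.17 (SE; adjusted p = 0.00028). For these 3 genes every KO library lay below 30% of the irradiated WT mean. IFIH1 ranged from 25.5 to 29.9 TPM in WT and from 10.6 to 12.5 TPM in KO (log2 fold change -1.23, adjusted p = 0.00019). DDX60L ranged from 27.6 to 33.1 TPM in WT and from 13.1 to 16.2 TPM in KO (-1.04, adjusted p = 0.00040). EIF2AK2 ranged from 63.7 to 65.1 TPM in WT and from 42.0 to 44.9 TPM in KO (-0.56, adjusted p = 0.00011). All 6 were also called with only these 6 libraries in the fit and with any single library left out.

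TLR3 measured 5.69, 5.89 and 4.66 TPM in irradiated WT and 4.50, 3.75 and 4.17 TPM in irradiated KO cells. The KO libraries lay below the WT libraries, which 14.5% of all genes did, but the log2 difference of -0.32 had a 95% interval of -0.70 to 0.07 and did not pass (adjusted p = 0.39). MAVS measured 26.1, 25.7 and 25.2 TPM in irradiated WT and 27.4, 27.1 and 12.96 TPM in irradiated KO cells. The mean of the KO group thus rests on replicate 3, which held 47.1% of the unirradiated KO mean, while the other 2 libraries were above all WT libraries. The log2 difference was -0.26 (95% interval -0.73 to 0.22, adjusted p = 0.60) with that library and 0.08 without it. A drop of this kind, to under 60% of both other libraries of the group, occurred in 0.639% to 0.948% of the 9390 genes with a mean of at least 10 TPM in each of the 12 libraries. Both limits were chosen after the MAVS values were seen, so these shares are a description only.

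**Figure D3:**
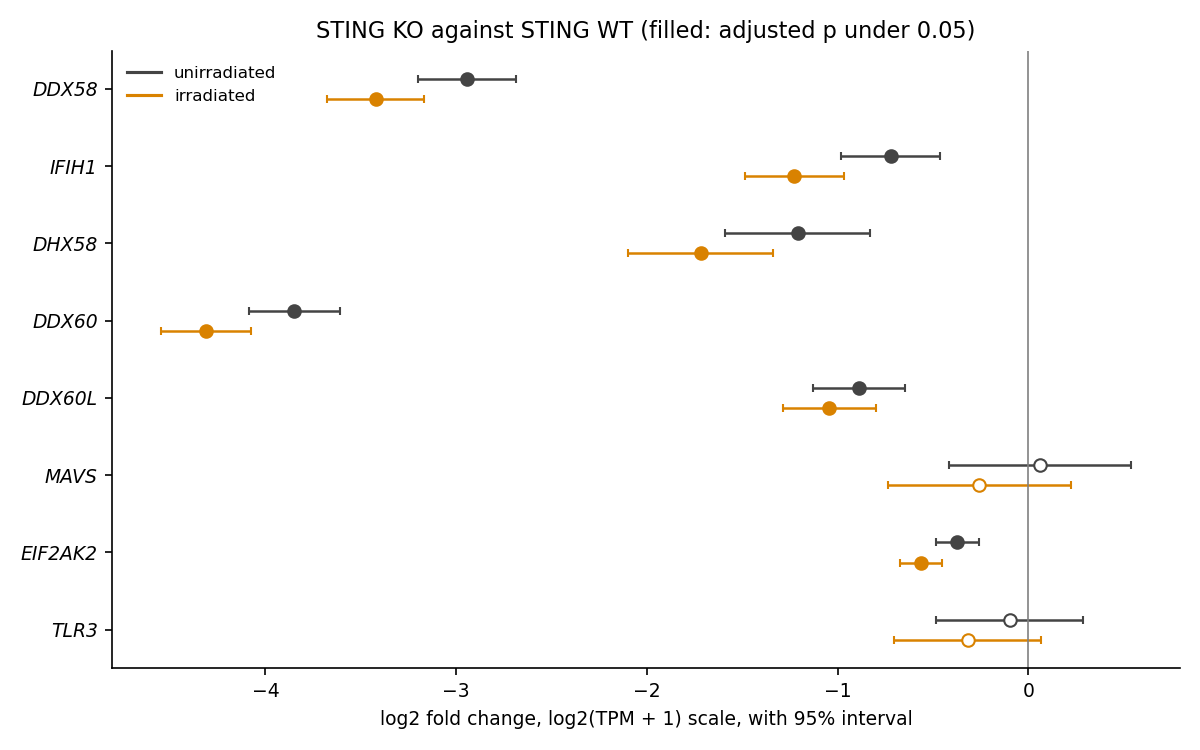
Log2 fold change of STING KO against STING WT on the log2(TPM + 1) scale (horizontal axis) for the 8 RNA sensor genes, with 95% intervals, in unirradiated and irradiated cells (3 libraries per group). Filled points passed an adjusted p of 0.05 and cover the same 6 genes in both arms, from -0.37 (EIF2AK2, unirradiated) to -4.31 (DDX60, irradiated), while the intervals of MAVS and TLR3 cross 0.

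Radiation raised DDX58 in WT cells and no other sensor gene at an adjusted p under 0.05, where 2.24% of all genes were called higher. DDX58 went from a mean of 39.6 TPM ± 6.17 to 66.9 TPM ± 3.82 (SD, n = 3), a 1.69-fold difference, with every irradiated library above every unirradiated one. The log2 fold change was 0.75 ± 0.11 (SE; adjusted p = 0.0065), 0.62 without the low WT replicate 3 (adjusted p = 0.012), and with only the 6 WT libraries in the fit the adjusted p was 0.054. DHX58 went from 12.3 TPM ± 2.09 to 18.9 TPM ± 1.70, again without overlap, at 0.59 (95% interval 0.21 to 0.97, adjusted p = 0.095). It passed, at an adjusted p of 0.041, when the unirradiated KO replicate 1 was left out of the shared estimate of spread. EIF2AK2 went from 56.8 TPM ± 2.35 to 64.4 TPM ± 0.694 without overlap, at 0.18 (95% interval 0.07 to 0.29, adjusted p = 0.081). Irradiated libraries lay above all unirradiated ones for these 3 sensor genes, and for 14.7% of all genes.

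The libraries of the other 5 sensor genes overlapped between irradiated and unirradiated WT cells. The log2 differences were 0.25 for IFIH1 (95% interval -0.01 to 0.50), 0.24 for DDX60 (-0.0016 to 0.47) and 0.20 for DDX60L (-0.04 to 0.44), and fell to 0.12, 0.10 and 0.14 without the unirradiated WT replicate 3. MAVS gave -0.04 (-0.51 to 0.44, widened by the irradiated KO libraries in the shared spread) and TLR3 -0.06 (-0.45 to 0.32). The median over the 8 genes was 0.22, against 0.02 for all genes. The TPM ratio of DDX58 to IFIH1 was 2.29 to 2.46 in the irradiated WT libraries, above its unirradiated range of 1.62 to 1.76. This was not particular to WT, since the KO ratio was 0.457 to 0.478 with radiation and 0.252 to 0.353 without it.

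In KO cells limma called 0 of the 8 sensor genes after radiation, where 3.69% of all genes were called in either direction, and 1 of 8 had an unadjusted p under 0.05 (18.1% of all genes). That gene was DDX58, at 4.33, 3.69 and 4.74 TPM without and 5.05, 5.23 and 5.73 TPM with radiation. Its irradiated libraries were all above the unirradiated ones, as for 13.7% of all genes, with a log2 difference of 0.27 (95% interval 0.02 to 0.53, adjusted p = 0.24). DDX60 went the other way, from a mean of 4.65 to 3.82 TPM, with all irradiated libraries below the unirradiated ones, as for 10.6% of all genes (-0.23, 95% interval -0.47 to 0.01, adjusted p = 0.29). IFIH1 gave -0.26 (-0.51 to 0.0001), MAVS -0.35 (-0.83 to 0.12) and TLR3 -0.28 (-0.67 to 0.10). Without irradiated KO replicate 3 MAVS gave -0.015, and without unirradiated KO replicate 3 TLR3 gave -0.14. DHX58 (0.08), DDX60L (0.04) and EIF2AK2 (-0.01) lay nearest to 0, with intervals of -0.30 to 0.46, -0.20 to 0.28 and -0.12 to 0.10.

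The radiation effect in KO minus that in WT was below 0 for all 8 sensor genes, from -0.16 (DDX60L) to -0.51 (DHX58), with a median of -0.39 against 0.00 for all genes. limma called 0 of 8 at an adjusted p under 0.05 (0.0188% of all genes were called) and 4 of 8 at an unadjusted p under 0.05 (6.61% of all genes). Those 4 were DDX58 (-0.48, 95% interval -0.84 to -0.12), IFIH1 (-0.50, -0.87 to -0.14), DDX60 (-0.46, -0.80 to -0.13) and EIF2AK2 (-0.19, -0.35 to -0.03), with adjusted p-values of 0.69, 0.68, 0.68 and 0.73. The 8 genes share their libraries, and without the unirradiated WT replicate 3 the first 3 values were -0.35, -0.38 and -0.33. For MAVS the difference was -0.32 with and 0.02 without the irradiated KO replicate 3. A difference in radiation response between the genotypes was therefore not established for any single sensor gene, including DDX58, whose rise passed the test in WT cells only.

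**Figure D4:**
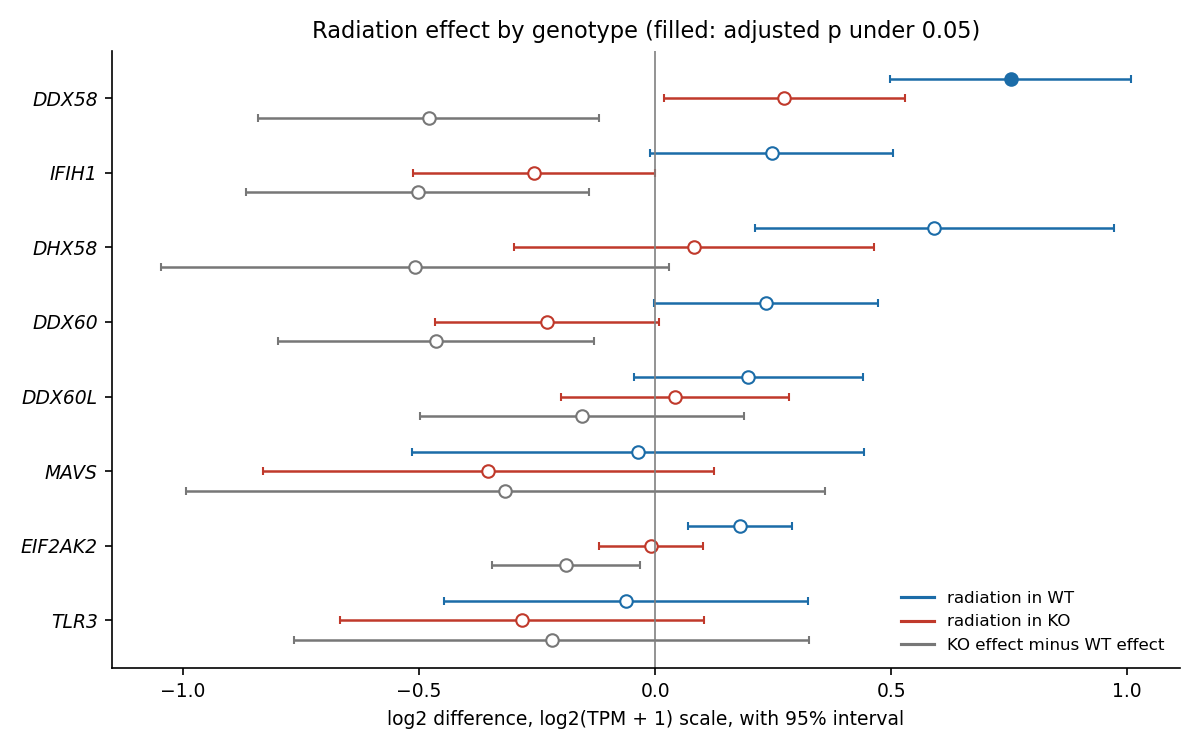
Radiation effect on the log2(TPM + 1) scale (horizontal axis) in WT and in KO cells, and the KO effect minus the WT effect, with 95% intervals, for the 8 RNA sensor genes. The only filled point, for an adjusted p under 0.05, is DDX58 in WT cells at 0.75, and the 8 differences between genotypes all lie below 0.

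The rest of the pathway was measured with 6 lists of activators, relay proteins, inhibitors and related helicases, 81 distinct genes in all, and most of these genes did not pass. In unirradiated cells 7 of the 81 (8.64%, against 1.26% of all genes) were lower in KO and 1 was higher (0.463% of all genes), and the median log2 fold change was 0.01. Among the genes that modify or assist RIG-I and MDA5, 1 of 9 was called. This was ZC3HAV1 (ZAP, a zinc finger protein that binds CpG-rich viral RNA), which fell from 92.9 to 48.7 TPM (-0.92 ± 0.049, SE; adjusted p = 3.6e-06). The ubiquitin ligases that act on RIG-I gave -0.23 for TRIM25 (adjusted p = 0.071) and 0.18 for RNF135 (adjusted p = 0.33). Of the 17 inhibitors 0 were called by limma and 3 had an unadjusted p under 0.05 (14.3% of all genes), and NLRX1, a mitochondrial inhibitor of MAVS, gave 0.05.

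In the relay below MAVS, 2 of 21 genes were called, IFIT3 and IRF7, and both are themselves interferon-stimulated. IFIT3, which bridges MAVS and TBK1, fell from 114.7 to 6.25 TPM (-3.99 ± 0.15, SE; adjusted p = 2.3e-07). IRF7, a transcription factor for interferon genes, fell from 16.3 to 8.80 TPM (-0.82 ± 0.14, SE; adjusted p = 0.012), a call made under 15 of 20 alternatives. The call was missed without unirradiated WT replicate 1 or 2 or KO replicate 1 or 2 (adjusted p = 0.051 to 0.054). It was also missed with only the libraries of the groups compared (adjusted p = 0.091). Other enzymes and factors of this relay gave 0.01 for TBK1 (95% interval -0.11 to 0.13), -0.04 for IKBKE, -0.06 for IRF3 (-0.39 to 0.28) and -0.24 for TRAF3 (-0.72 to 0.24), with adjusted p-values of 0.68 or more.

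In the TLR3 branch 1 of 9 genes was lower and 1 higher. CTSL, an endosomal protease, fell from 157.9 to 125.7 TPM (-0.33, adjusted p = 0.011), and CD14, a co-receptor, rose from 2.82 to 4.07 TPM (0.40, adjusted p = 0.043) but passed under only 5 of 19 alternative settings. The TLR3 adaptor TICAM1 gave 0.09 and its chaperone UNC93B1 gave -0.02, with adjusted p-values of 0.75 and 0.97. Of the 12 regulators of PKR and kinases of eIF2alpha limma called 0, and 1 had an unadjusted p under 0.05, as did 14.3% of all genes. Among them PRKRA, an activator of PKR, gave 0.09 and EIF2S1, which encodes the substrate eIF2alpha, gave 0.23 (adjusted p-values of 0.85 and 0.64). Among 14 other helicases tied to RNA sensing, ZNFX1 (-0.97, adjusted p = 7.6e-06), HELZ2 (-0.74, adjusted p = 0.011) and DDX21 (-0.21, adjusted p = 0.013) were lower. Of these calls CTSL was missed without unirradiated WT replicate 2 (adjusted p = 0.051) or KO replicate 2 (0.054), HELZ2 without KO replicate 2 (0.056), and DDX21 without WT replicate 3 (0.059) or KO replicate 3 (0.069). With only the libraries of the groups compared in the fit, CTSL (adjusted p = 0.0565), HELZ2 (0.093) and DDX21 (0.10) were all missed. DDX21 was also missed with eBayes without trend (0.071).

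DDX58, DHX58, DDX60 and DDX60L bear the DDX or DHX names of a large helicase family. Of 84 other genes listed with such a symbol, pseudogenes and antisense RNAs included, 48 were tested, 1 was called lower in unirradiated KO cells (DDX21, already given above) and 0 higher by limma (7 lower and 1 higher at an unadjusted p under 0.05, which 14.3% of all genes had), and their median log2 fold change was -0.04. In irradiated cells 5 of the 48 were called lower and 1 higher (2.66% and 0.927% of all genes), with a median of -0.07. In that comparison the 6 pathway lists again gave 7 genes lower in KO, which were the same 7, and 0 higher, while 15 of the 81 had an unadjusted p under 0.05, as did 17.9% of all genes.

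After radiation in WT cells 3 pathway genes rose, TNFAIP3 (A20, a ubiquitin-editing inhibitor; 0.69, adjusted p = 0.0022), HELZ2 (0.54, adjusted p = 0.040) and ZC3HAV1 (0.21, adjusted p = 0.045), the last 2 under only 7 and 4 of 20 alternatives. That is 3 of 81, where 2.24% of all genes were called higher. In KO cells TNFAIP3 rose as well (0.54, adjusted p = 0.0094), while RNF135 (-0.40, adjusted p = 0.022), PCBP1 (-0.23, adjusted p = 0.018) and RNF5 (-0.23, adjusted p = 0.028), the last 2 being inhibitors of MAVS, were lower. Over all genes 1.7% were called lower and 2% higher there. RNF135 passed under 14, PCBP1 under 15 and RNF5 under 13 of 20 alternatives. Leaving out unirradiated KO replicate 1 or 3 or irradiated KO replicate 3 ended each of these 3 calls, as did unirradiated KO replicate 2 for RNF135, irradiated KO replicate 2 for RNF135 and PCBP1, and irradiated KO replicate 1 for RNF5, with adjusted p-values of 0.051 to 0.10. With only the libraries of the groups compared, RNF135 (adjusted p = 0.078), PCBP1 (0.090), RNF5 (0.13) and TNFAIP3 in KO cells (0.076) were missed. RNF5 was also missed with eBayes without trend (0.0501) and with a replicate block (0.066). For the difference between the genotypes limma called 0 of the 81 genes (0.0188% of all genes), and 3 had an unadjusted p under 0.05 (6.61% of all genes).

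**Figure D5:**
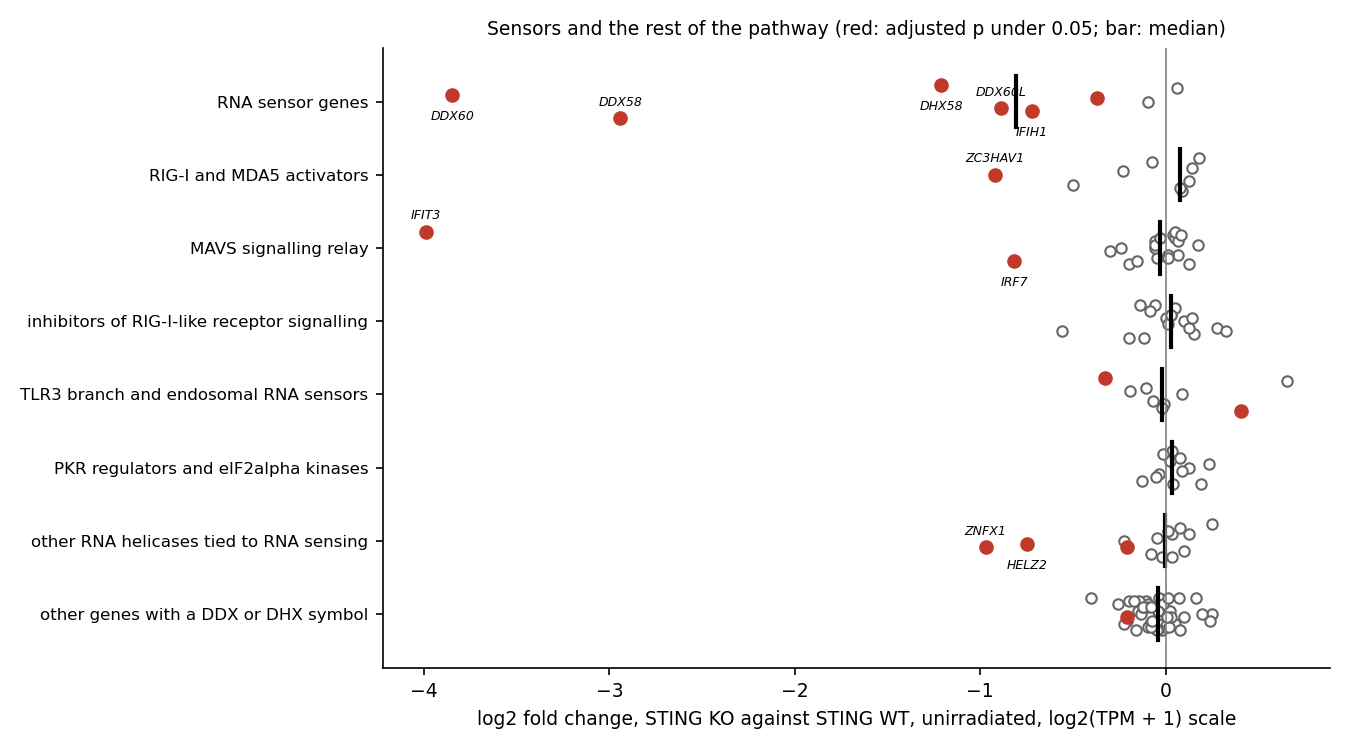
Log2 fold change of unirradiated KO cells relative to unirradiated WT cells on the log2(TPM + 1) scale (horizontal axis), with 1 point per gene of each list, for the 8 RNA sensor genes, the 6 pathway lists and other genes with a DDX or DHX symbol. The lists overlap, and a gene in more than 1 list, such as DDX21, is drawn in each. Red points passed an adjusted p of 0.05 and black bars mark list medians, which are -0.80 for the sensor genes and between -0.04 and 0.08 for the other lists.

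Interferon genes were nearly silent. Of 22 interferon ligand genes, 1 (IFNE) passed the filter on low values. IFNB1 was listed at 0 in all 12 libraries. IFNL1, a type III interferon, was listed at 0.816, 0.865 and 0.659 TPM in the unirradiated WT libraries, at 1.35, 2.18 and 0.514 TPM in the irradiated WT libraries, and at 0 in all 6 KO libraries. It was above 0 in every WT library but too low to be tested, and no fold against a group listed at 0 is given. IFNL2 (above 0 in 5 libraries, at most 0.471 TPM) and IFNL3 (above 0 in 3 libraries, at most 0.300 TPM) were also at 0 in all 6 KO libraries.

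The genes whose levels moved most like each sensor gene over the 12 libraries were found by the root mean square difference of log2(TPM + 1), after centring on the unirradiated WT mean. This is a description over libraries that share their groups. DDX58 was nearest to RSAD2 (0.17), MX1 (0.19) and IFI44L (0.23), and DDX60 to IFIT3 (0.19), IFI44 (0.35) and IFIT2 (0.48), all of them interferon-stimulated genes. DHX58 was nearest to PPM1K, PLCG2 and PMAIP1 (0.13 to 0.18), IFIH1 to SAMD9, AL136295.5 and PARP9 (0.10 to 0.15), and DDX60L to ZC3HAV1, AL136295.5 and SAMD9 (0.11 to 0.14). DDX60 had 1 gene within 0.25, DDX58 4, DHX58 5, IFIH1 36 and DDX60L 43. In contrast, 833 genes lay within 0.25 of MAVS, 1886 of TLR3 and 2181 of EIF2AK2, so the nearest genes of TLR3 (WDR25, AF196972.1 and LIFR-AS1) and EIF2AK2 (HLA-C, N4BP1 and FNDC3A) single out little.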

How the data were processed

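RNA-Seq was done on polyadenylated RNA of 12 FaDu libraries in 4 groups of 3. The authors deposited TPM per gene and library, with no filter and no scaling between libraries. Their processing notes name HISAT2, StringTie, DESeq2 and hg38, with versions, annotation release and strand setting not given in the sources used here. TPM keeps no read depth, so no counting interval could be given. The column heads name lines rather than genotypes and were assigned by the line names and by comparison with the study's own labelled values, and TMEM173 was lower in all columns assigned to KO.

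Genes with at least 1 TPM in 3 or more libraries (15973, all 8 sensor genes included) were analysed as log2(TPM + 1) with limma 3.58.1 in R 4.3.3, using 4 group means fitted to all 12 libraries, eBayes with trend and Benjamini-Hochberg adjustment at 0.05. The code was tested on simulated data. A test for counts such as DESeq2 could not be applied to these values. Ratios were compared with two-sided exact permutation tests. Sensor genes, lists and the rule for named genes (the 8 genes and TMEM173, listed genes past the threshold, 14 pathway genes whatever their values, the 3 largest changes in each direction of other called DDX or DHX genes, and the 3 nearest genes of each sensor gene, those of MAVS not being reported here) were chosen with earlier results of these data known. Cell type markers, PALLD, GPATCH11, IFNE, IFNL2 and IFNL3 were named besides. Alternatives were a pseudocount of 0.1, no filter, a mean of at least 5 TPM, median-of-ratios and quantile scaling, eBayes without trend, a replicate block, only the groups compared, and each library left out. Coordinates are from GENCODE release 29 on GRCh38, and promoters from RefSeq on GRCh38.p14.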

Additional observations from a re-analysis of the deposited data

Results flagged for a closer look

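For IFIH1 and DDX60 every irradiated WT library was above its group's unirradiated mean and every irradiated KO library was below it. The share of all genes with this pattern is not known here, so the pattern is not read as particular to these genes. None of the 4 radiation effects passed (limma, adjusted p = 0.30 and 0.28 for IFIH1 and 0.28 and 0.29 for DDX60, in WT and KO cells), so no change with radiation was shown for either gene. The radiation effect in KO minus that in WT was -0.50 for IFIH1 (limma, unadjusted p = 0.011, adjusted p = 0.68) and -0.46 for DDX60 (unadjusted p = 0.011, adjusted p = 0.68), and neither passed after adjustment over all genes. Without the unirradiated WT replicate 3 these values were -0.38 and -0.33. The pattern of DDX60 then no longer held, since its lowest irradiated WT library (88.4 TPM) fell below the WT mean of 88.5 TPM, and that of IFIH1 held by a margin of 25.52 against 25.48 TPM.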

How the results depend on the processing

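The counts of sensor genes past the threshold were 6 in both comparisons of KO with WT, 1 for radiation in WT, 0 for radiation in KO and 0 for the difference of radiation effects. With only the libraries of the groups compared they were 3 in unirradiated KO against WT and 0 for radiation in WT cells, where fewer libraries estimate the spread. Over all 15973 genes the calls fell in that setting from 276 to 103 and from 597 to 166. Leaving out each library gave 6 to 6 in the KO comparisons and 1 to 2 for radiation in WT, the 2 arising without the unirradiated KO replicate 1. The counts did not differ under the other alternatives run. Signs turned only in values that did not pass, and the cause was not tested. Leaving out each library gave TLR3 -0.24 to 0.057 in unirradiated KO against WT (above 0 without unirradiated WT replicate 1, and at 0.057 without unirradiated KO replicate 2) and -0.20 to 0.091 for radiation in WT (above 0 without unirradiated WT replicate 1, and at 0.025 without irradiated WT replicate 3). For radiation in KO the ranges were -0.11 to 0.22 for DHX58 (-0.11 without unirradiated KO replicate 1), -0.053 to 0.11 for DDX60L (-0.053 without irradiated KO replicate 3, -0.029 without unirradiated KO replicate 2) and -0.034 to 0.025 for EIF2AK2 (0.025 without unirradiated KO replicate 1, 0.013 without irradiated KO replicate 3). Those of MAVS were -0.43 to 0.082 in irradiated KO against WT and -0.49 to 0.021 for the difference of radiation effects, both above 0 without irradiated KO replicate 3.

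The replicate numbers are shared by the groups, but libraries of the same number did not deviate together (r from -0.06 to 0.06 over 18 pairs), and 2 of 12 libraries correlated best with their own number. With the replicate number as a block the sensor gene counts were 6, 6, 1, 0 and 0, and over all genes 211 passed in unirradiated KO against WT in place of 276, 315 for radiation in WT in place of 597, and 359 for radiation in KO in place of 590. The alternatives for genes outside the 8 were chosen after seeing the data. TPM keeps no depth, so the precision of low genes such as TLR3 rests on the spread between libraries, estimated over all 12.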
